A study of Rattus norvegicus with 6 samples.

Results

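Cytokines are the secreted proteins through which mast cells and basophils act on other cells, and 10 of their genes are described here across 6 RNA-seq libraries of RBL-2H3 cells. The members were taken by gene symbol from the deposited expression table, and all 10 were found, each in 1 row of the 22601 genes listed. They fall into the type 2 cytokines Il4, Il5, Il9 and Il13, the growth and survival factors Il3, Csf1 and Csf2, and the inflammatory or regulatory cytokines Il6, Il10 and Tnf. RBL-2H3 is a wild-type rat cell line of basophilic leukemia origin. The control group holds 3 libraries of cells that received no PIO, and the other group holds 3 libraries of cells given PIO, the series' agonist of the nuclear receptor PPARγ, at 10 µM for 6 h. Cells of both groups were kept in MEM with fetal bovine serum, penicillin and streptomycin. No stimulus of the IgE receptor is named for either group, and no vehicle is given for the controls. The labels do not say that replicates are separate cultures, so p-values refer to the variation among these 6 libraries only, and that variation can be technical.

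In mast cells and basophils most cytokine genes are nearly silent at rest. Crosslinking of the IgE receptor raises calcium and activates kinases, and the transcription factors NFAT, AP-1 and NF-kB then switch the genes on for a short time, while GATA factors keep the type 2 genes accessible in these lineages. Il3, Csf2, Il4, Il13 and Il5 lie in 1 gene cluster in mammals. Ligands of PPARγ are known to restrain inflammatory cytokine genes in activated macrophages.

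Values are FPKM, the fragments of a gene scaled to its length and to the reads of its library, so levels can be compared between genes. Whole reads could be recovered from them. The library totals were 14048202 to 15084729 reads, and 9824 to 9876 genes per library had at least 1 FPKM. Of 14 markers of mast cells and basophils, 10 stood at 10 FPKM or more, led by the proteoglycan gene Srgn (1697 ± 63.5 FPKM in control, SD, n = 3) and the IgE receptor genes Ms4a2 (861 ± 7.95 FPKM) and Fcer1g (562 ± 45.7 FPKM). The defining protease genes Tpsab1 and Mcpt8 and the basic protein gene Prg2 were listed at 0. Cells that could bring cytokine transcripts of their own were sought through their markers. Of 10 macrophage markers 3 were listed at 0 (Cd14, Marco and Cd86), and the list summed to 22.3 to 23.7 FPKM in the control libraries and to 20.5 to 21.4 in the PIO libraries, mostly from the integrin gene Itgam. Of 11 T and NK cell markers, 4 were at 0 (Cd3d, Cd8a, Cd5 and Klrb1), and the sum of 311 to 336 FPKM in the control libraries and 330.3 to 372 in the PIO libraries was nearly all from the granule gene Nkg7. Markers of B cells summed to at most 0.653 FPKM in any library, those of neutrophils to at most 0.246 FPKM, and those of fibroblasts to 4.74 to 5.62 FPKM, mostly from Col3a1. All 6 tested targets of PPAR factors were higher with PIO, with groups that did not overlap, and 2 passed the test, namely Cpt1a, which encodes the carnitine palmitoyltransferase of fatty acid import into mitochondria (6.05 ± 0.388 FPKM without PIO and 12.5 ± 0.204 FPKM in its presence, SD, n = 3, log2 difference 0.99, limma adjusted p = 0.00159), and the heme oxygenase gene Hmox1 (155 ± 1.84 and 194 ± 4.71 FPKM, log2 fold change 0.32, limma adjusted p = 0.026). The other 4 tested, Acaa2, Hilpda, Plin2 and Mgll, had log2 fold changes of 0.19 to 0.31 and limma adjusted p of 0.290 to 0.304. Over all genes tested, 18.5% had groups that did not overlap in either direction, and 0.0384% passed the test. The list held 10 targets and was chosen with earlier results of these data known. The shared direction of the tested targets is therefore not an independent check of the treatment. The remaining ones were too low to be tested. Pdk4, Fabp4 and Cd36 were at 0 throughout, and Angptl4 had 1 read per control but none under PIO.

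RBL-2H3 cells carried reads of 8 of the 10 cytokine genes, but only Csf1 was abundant. Csf1 averaged 65.2 ± 3.05 FPKM over the 6 libraries (SD), followed by Il4 at 1.76 ± 0.634, Il13 at 1.61 ± 0.576 and Il3 at 0.720 ± 0.414 FPKM. Csf2 (0.106 ± 0.131 FPKM), Tnf (0.0754 ± 0.0552 FPKM), Il9 (0.0413 ± 0.101 FPKM) and Il6 (0.0328 ± 0.0555 FPKM) each rested on 11 reads or fewer over the 6 libraries. Il5 and Il10 were listed at 0 in every library. Csf1 alone held 92.4% to 95.2% of the summed FPKM of the 10 genes. Its lowest library (62.6 FPKM) lay above the highest library of Il4 (2.79 FPKM), a ratio of the means of 37.0. Every other pair of neighbours in this order overlapped in range over the 6 libraries. Il4 was above Il13 in 4 of 6 libraries, Il13 above Il3 in 5 of 6, and Il3 above Csf2 in 5 of 6. Over all libraries Il3 had 36 reads (95% exact interval 25.2 to 49.8) and Csf2 had 4 (1.09 to 10.2), so this pair was apart in counting error although 1 library went the other way. In bulk RNA, fewer cells that transcribe a gene and less RNA in each cell cannot be told apart.

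**Figure D1:**
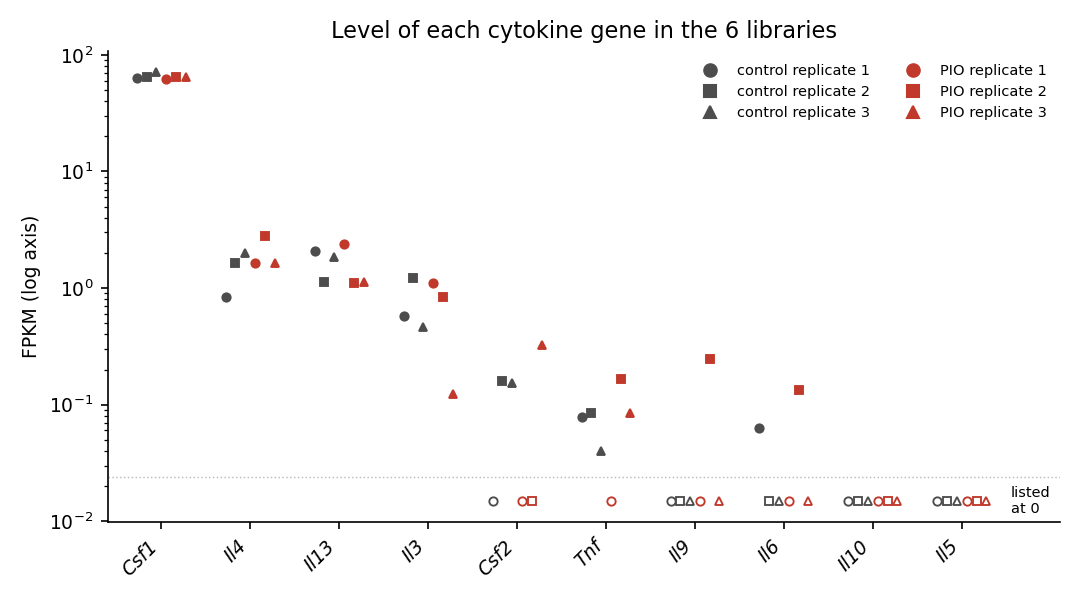
FPKM on a log axis for each of the 10 cytokine genes, ordered by mean, with 1 point per library (grey, control; red, PIO; the marker shape gives the replicate) and open points for values listed at 0. Csf1 lies between 62.6 and 71.1 FPKM in all libraries, and no other gene exceeds 2.79 FPKM.

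Among the type 2 cytokines, Il4 and Il13 were the genes read in every library. Of the 5 clustered members, 4 have a promoter sequence in the RefSeq table of the rat assembly GRCr8, and they are printed because they sit in 1 cluster while their transcripts range from Il4, read in all 6 libraries, to Il5, read in none. Each window runs from 250 bases before to 50 bases after the annotated start, on the strand of the gene. Capitals mark the core letters of NFAT sites, GGAAA, or TTTCC where the core lies on the opposite strand. The windows are chr10:38277500-38277799 on the minus strand for Il4, chr10:38908761-38909060 on the minus strand for Il3, chr10:38889624-38889923 on the minus strand for Csf2, and chr10:38374882-38375181 on the plus strand for Il5.
Il4: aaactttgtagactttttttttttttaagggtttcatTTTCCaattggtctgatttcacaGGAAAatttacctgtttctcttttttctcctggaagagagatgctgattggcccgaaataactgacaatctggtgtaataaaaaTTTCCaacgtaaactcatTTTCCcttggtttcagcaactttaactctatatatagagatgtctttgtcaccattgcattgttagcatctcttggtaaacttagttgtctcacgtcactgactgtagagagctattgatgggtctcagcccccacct
Il3: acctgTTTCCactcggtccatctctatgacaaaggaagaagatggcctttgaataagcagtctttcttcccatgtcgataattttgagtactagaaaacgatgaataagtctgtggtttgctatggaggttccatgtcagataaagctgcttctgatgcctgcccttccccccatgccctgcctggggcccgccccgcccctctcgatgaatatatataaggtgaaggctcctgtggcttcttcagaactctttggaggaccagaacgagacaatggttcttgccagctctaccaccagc
Csf2: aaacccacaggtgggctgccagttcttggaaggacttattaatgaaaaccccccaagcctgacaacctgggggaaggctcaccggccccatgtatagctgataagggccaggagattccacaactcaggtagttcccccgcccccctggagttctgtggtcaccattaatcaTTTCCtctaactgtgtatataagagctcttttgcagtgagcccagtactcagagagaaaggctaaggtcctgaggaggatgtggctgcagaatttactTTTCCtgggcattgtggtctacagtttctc
Il5: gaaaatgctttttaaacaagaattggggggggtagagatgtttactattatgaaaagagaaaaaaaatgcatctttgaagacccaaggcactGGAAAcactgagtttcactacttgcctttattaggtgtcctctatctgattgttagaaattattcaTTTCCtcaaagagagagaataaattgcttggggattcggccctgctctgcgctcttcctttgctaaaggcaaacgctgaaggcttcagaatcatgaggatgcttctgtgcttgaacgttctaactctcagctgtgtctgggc

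The Il4 window held 4 NFAT cores, starting 213, 190, 106 and 88 bases before the annotated start. Of all 33469 promoter windows of this length, 62.7% held at least 1 such core on either strand and 2.9% held 4 or more. Il5 and Csf2 held 2 cores each and Il3 held 1. Outside the cluster, the windows of Il6, Il9 and Tnf, which are not printed, held 3 each, a number that 10.1% of all windows reached. The letters GATAA, 1 form of a GATA site, occurred at 2 places in Il3 and at 1 each in Csf2 and Il6 (26.5% of all windows held them). These letters were found in neither the Il4 nor the Il5 window. Other forms of a GATA site were not searched, so their absence is not shown. The AP-1 site TGANTCA was found in Il9 only (7.33% of all windows). For NF-kB 1 strict form was searched, namely GGG, A or G, any 2 bases, 2 of C or T, and CC. That form was found in Il6 only (7.51%), where it overlaps an NFAT core. Looser forms of the NF-kB site were not searched, so their absence from the other windows is not shown. The TATA box TATAAA was found in Tnf only (14.2%). The repeat TATATA, a letter string added after the sequences had been seen, was present in Il4, Il3 and Csf2 (6.15% of all windows). The half-site of nuclear receptors, AGGTCA, was in none of the 7 windows and in 16.2% of all. A match describes letters and not binding. In reads over all libraries, Il4 with 4 NFAT cores had 72, and Tnf, Il6 and Il9 with 3 each had 11, 3 and 2. Csf2 and Il5 with 2 cores each had 4 and 0, and Il3 with 1 core had 36. These reads are not scaled to gene length, and a relation to the cores was not tested.

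**Figure D2:**
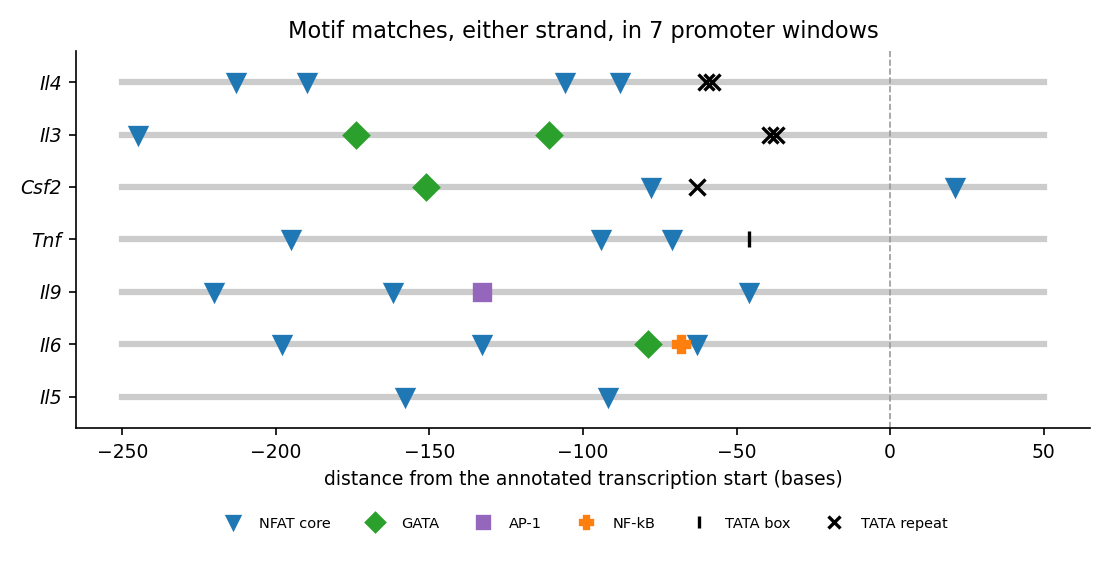
Positions of motif matches on either strand in the 7 promoter windows found, in bases from the annotated start (dashed line), with genes ordered by their mean FPKM. The Il4 window carries 4 NFAT cores and Il3 carries 1, and the TATA repeats of Il4, Il3 and Csf2 lie just before the start.

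Il4, which drives IgE class switching and the type 2 helper program, had FPKM of 0.837, 1.64 and 1.99 in the controls, replicates 1 to 3, and of 1.65, 2.79 and 1.64 in the PIO libraries. Control replicate 1 was lowest and PIO replicate 2 highest, while the other 4 libraries lay close together and the groups overlapped. The values rest on 6, 11 and 14 reads in control and 11, 19 and 11 reads with PIO, on a gene model of 475 bases. In all, 31 control reads and 41 PIO reads gave a ratio per library read of 1.37, with a 95% exact interval of 0.838 to 2.26 that covers counting error only. The standard deviation of the 6 read numbers, not scaled to library size, was 4.29, against 3.46 from counting alone.

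Il13, the type 2 cytokine of mucus production and airway responses, stood at 2.10, 1.12 and 1.83 FPKM in control and at 2.41, 1.10 and 1.12 FPKM with PIO. Control replicates 1 and 3 and PIO replicate 1 were high, and the other 3 libraries were nearly equal, so high and low libraries occurred in both groups. The reads were 14, 7 and 12 in control and 15, 7 and 7 with PIO, on a model of 443 bases, with a standard deviation of 3.78 against 3.21 from counting. The ratio of PIO to control per library read was 0.910 (95% exact interval 0.533 to 1.55). Il4 was lowest in control replicate 1, where Il13 was the second highest. With spreads this near to counting error, the libraries cannot show whether Il13 and Il4 vary together.

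Il5, the growth factor of eosinophils, was listed at 0 in all 6 libraries, beside 72 reads of Il4 and 62 of Il13. Taken as a count, a 0 has a 95% exact upper limit of 3.69 reads. The set floor of 3 reads, slightly lower, is 0.199 to 0.214 RPM (reads scaled to library size) in a single library. Over all 86426698 reads it is 0.0347 RPM. Il9, a growth factor of mast cells, was listed at 0 in 5 libraries and at 0.248 FPKM, or 2 reads, in PIO replicate 2. A gene listed at 0 in this table is not always silent, because Polr2h, chosen after its values were seen and a subunit gene shared by the nuclear RNA polymerases that every cell uses, was also at 0 in all 6 libraries.

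Among the growth and survival factors Il3, which supports mast cells and basophils, stood at 0.571, 1.22 and 0.466 FPKM in control and at 1.10, 0.841 and 0.122 FPKM with PIO. Control replicate 2 was highest and PIO replicate 3 lowest, and the groups overlapped. The 5, 10 and 4 reads in control and 9, 7 and 1 reads with PIO had a standard deviation of 3.35, against 2.45 from counting, and a ratio of 0.927 (95% exact interval 0.452 to 1.88). Csf2, which encodes GM-CSF and lies next to Il3, had 0, 1 and 1 reads in control and 0, 0 and 2 reads with PIO, so 36 reads of Il3 stood beside 4 of its neighbour. The comparison of Csf2 between groups was imprecise, with 2 control reads and 2 PIO reads (ratio 1.04, 95% exact interval 0.0751 to 14.3).

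Csf1 encodes M-CSF, the growth factor of macrophages and osteoclasts, and was present in every library at a mean that 1386 of the 15429 genes above 0 exceeded (8.98%). It stood at 63.7, 64.3 and 71.1 FPKM in control and at 62.6, 64.1 and 65.3 FPKM with PIO, from 4677 to 5591 reads per library on a model of 5317 bases. Control replicate 3 was highest, the other 5 libraries lay within 62.6 to 65.3 FPKM, and the groups overlapped. Control replicate 3 also stood apart in the stress factor gene Atf4, which was chosen after its values were seen (FPKM of 279, 277 and 617 in the controls, and 240 to 255 under PIO), and the part of that difference in the Csf1 value was not tested. Without that library the log2 fold change of Csf1 was 3.53e-05.

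Tnf, the early inflammatory cytokine that mast cells both store and synthesise, had 2, 2 and 1 reads in control and 0, 4 and 2 reads with PIO, or 0.0786, 0.0840 and 0.0401 FPKM and 0, 0.166 and 0.0842 FPKM. The groups overlapped, with PIO replicate 1 lowest and PIO replicate 2 highest. Il6, the acute-phase cytokine, had 1 read in control replicate 1, 2 reads in PIO replicate 2 and none in the other 4 libraries. Il10, which dampens inflammation, was listed at 0 in all libraries, with the same limit as Il5. Apart from Csf1, the cytokine genes together held 28, 31 and 32 reads in the controls, against 35, 41 and 23 under PIO. The highest and the lowest of these sums both came from PIO libraries.

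**Figure D3:**
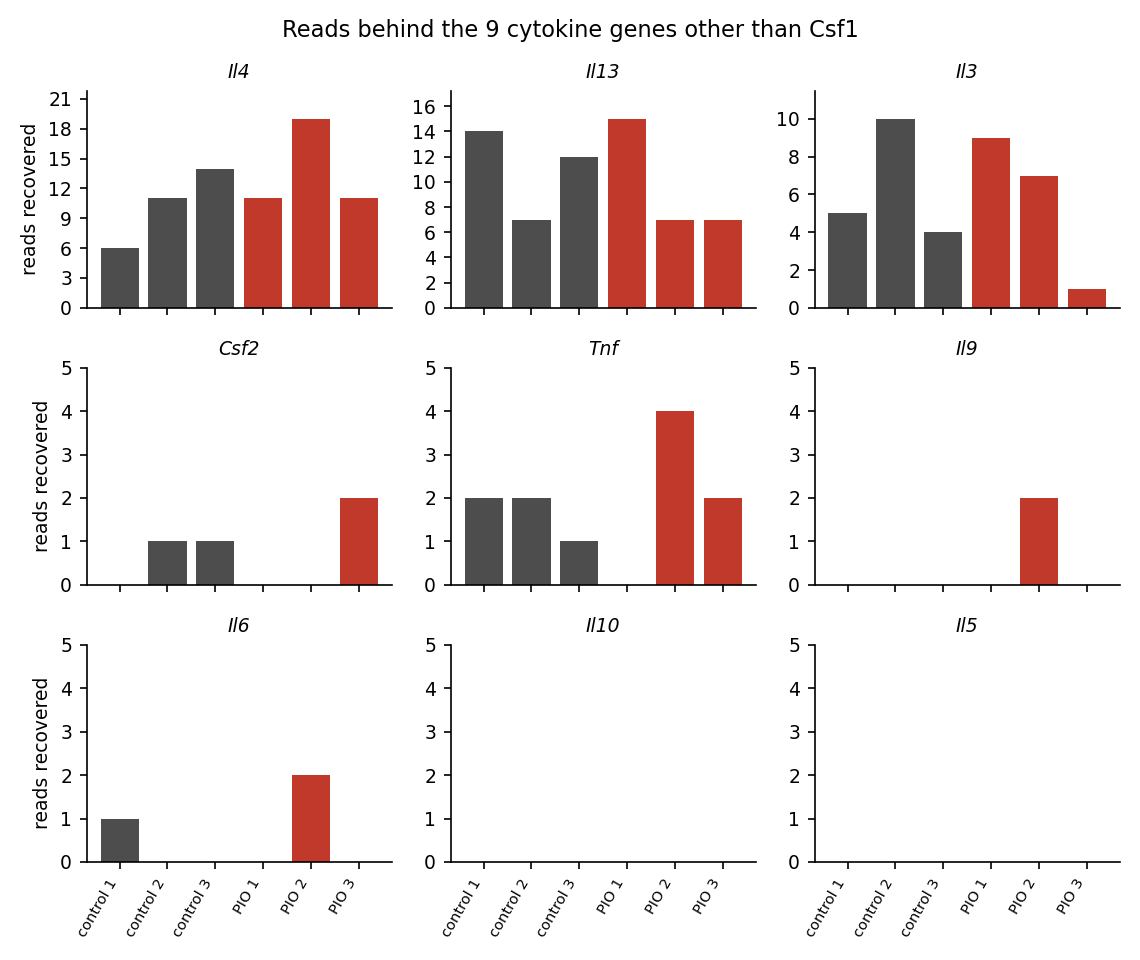
Reads recovered per library for the 9 cytokine genes other than Csf1 (grey bars, control replicates 1 to 3; red bars, PIO replicates 1 to 3), with a linear axis of its own in each panel. Il4 reaches 19 reads in PIO replicate 2, Il13 reaches 15 in PIO replicate 1, and Il5 and Il10 have none.

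PIO replicate 2 held the highest value of 4 of the 8 cytokine genes detected, namely Il4, Il6, Il9 and Tnf. Il6 and Il9 had 2 reads each there, and the share of all genes highest in this library was not computed. The AP-1 subunit genes Fos and Fosb, chosen for this comparison after their values were seen, were also highest in PIO replicate 2. The other Fos and Jun genes listed were highest elsewhere. Jun, Jund and Fosl2 were highest in control replicate 3, Junb in PIO replicate 3, and Fosl1, at few reads, in control replicate 2. Fos had 3, 6 and 6 reads in control and 6, 30 and 9 reads with PIO, and Fosb had 8, 10 and 12 and then 8, 27 and 7 reads. Their part in the cytokine values was not tested. The log2 fold change of Il4, 0.36 over all 6 libraries, was 0.16 without PIO replicate 2 and 0.10 without control replicate 1.

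Whether PIO changed these genes was asked in 1 limma fit of the 10410 genes averaging 0.5 FPKM or more, on log2(FPKM + 0.5), a scale that understates the change of low genes. That limit kept 4 of the 10 cytokine genes, none of which was called at an adjusted p under 0.05, where 4 of all genes tested were called (0.0384%, all higher). None of the 4 reached an unadjusted p under 0.05, which 1302 of all genes did. Control and PIO values overlapped for all 4, while 18.5% of all genes tested had groups that did not overlap. The log2 fold change of Csf1 was -0.05 (SE 0.05, 95% interval -0.16 to 0.06, limma adjusted p = 0.676), so its interval spans a fold of 0.894 to 1.04. Il4 had a log2 fold change of 0.36 (95% interval -0.22 to 0.94, limma adjusted p = 0.566). For Il13 it was -0.12 (-0.72 to 0.47, limma adjusted p = 0.859) and for Il3 -0.14 (-0.96 to 0.69, limma adjusted p = 0.891). The median over the 4 was -0.09, with 1 higher and 3 lower, beside a median of 0.0094 over all genes tested. As folds on that scale the intervals run from 0.861 to 1.92 for Il4, from 0.607 to 1.39 for Il13 and from 0.513 to 1.61 for Il3. The sign turned for Il3 without control replicate 2 (0.12) or PIO replicate 3 (0.28), and for Il13 without control replicate 1 (0.014), PIO replicate 2 (0.021) or PIO replicate 3 (0.013). The other 6 genes lay below the limit on low values. A fit without that limit took in all 8 genes above 0 and called none of them, and the read ratios of the low genes had wide intervals, such as 0.316 to 5.15 around 1.24 for Tnf.

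**Figure D4:**
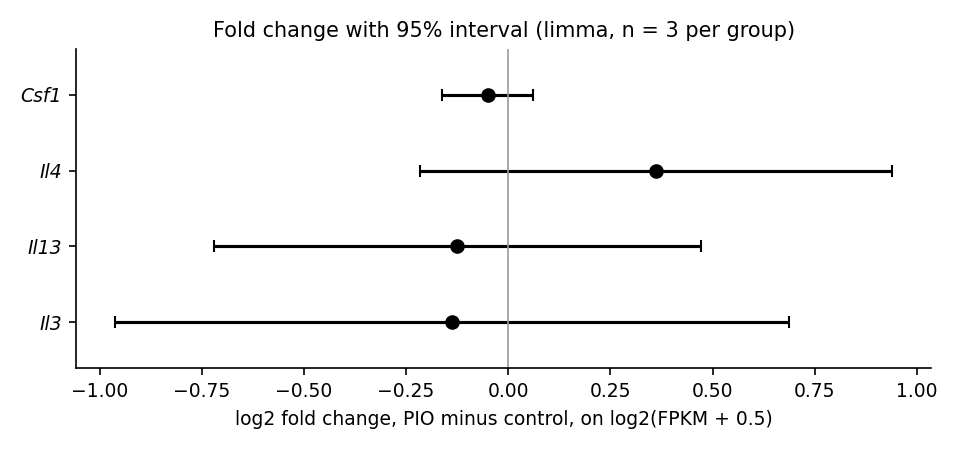
Log2 fold change of PIO minus control, on the log2(FPKM + 0.5) scale, for the 4 cytokine genes tested, with 95% intervals from limma as bars and a line at 0. The interval of Csf1 runs from -0.16 to 0.06 and that of Il3 from -0.96 to 0.69, and all 4 cross 0.

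The receptors of the 10 cytokines ranged from abundant to unread. Of the 16 receptor genes 8 could be tested, none passed the test, 3 were higher and 5 lower, and the median log2 fold change was -0.02. Only 0.0384% of all genes tested passed, so a count of none, here and in the lists below, does not set a list apart. Csf2rb, the signalling chain shared by the receptors of Il3, Il5 and Csf2, averaged 139 ± 13.6 FPKM without and 139 ± 5.03 FPKM with PIO (SD, n = 3). Its partner for Il3, Il3ra, stood at 10.4 to 11.3 FPKM over the 6 libraries, above the partner for Csf2, Csf2ra (0.636 to 0.981 FPKM), and that for Il5, Il5ra (0.125 to 0.213 FPKM). Il2rg, the common gamma chain used by Il4 and Il9, stood at 56.5 ± 0.909 and 55.2 ± 1.82 FPKM, beside Il9r at 15.0 ± 1.32 and 14.0 ± 0.951 FPKM and Il4r at 8.10 to 9.33 FPKM. The receptor chains of Il10, which itself was not read, were both present (Il10ra at 5.46 to 6.41 FPKM, Il10rb at 6.59 to 7.74 FPKM). In reverse, Csf1 was abundant while Csf1r, its receptor and a marker of macrophages, stood at 0.219 to 0.493 FPKM. Il13ra1 was at 0 in 4 libraries, Il6st had at most 3 reads, and Il6r, Il13ra2, Tnfrsf1a and Tnfrsf1b were listed at 0 in all 6.

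**Figure D5:**
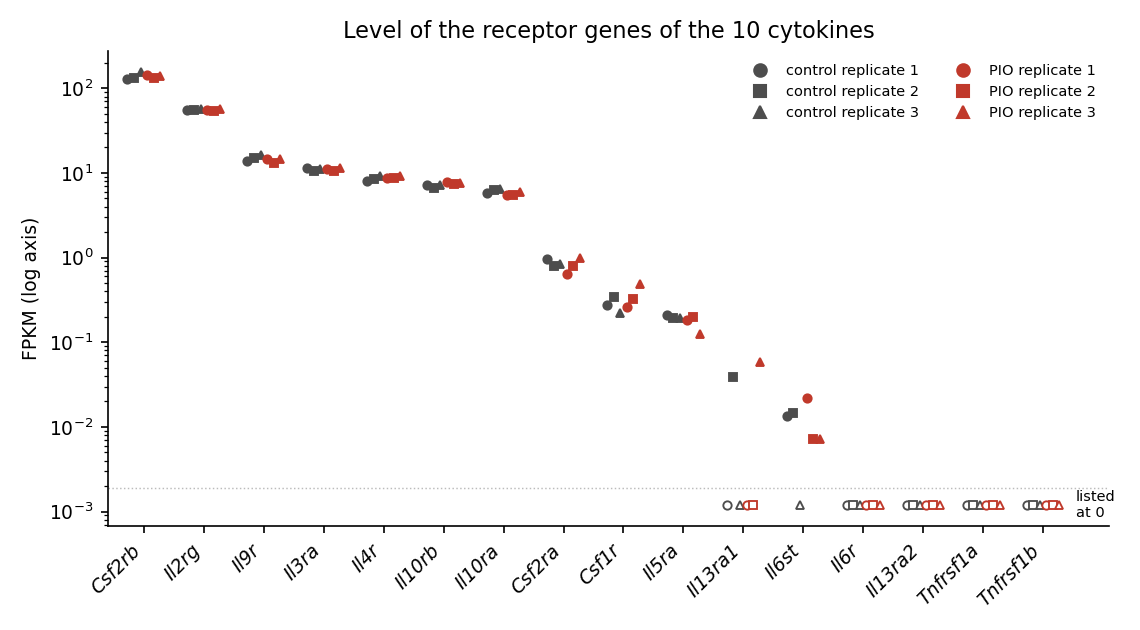
FPKM on a log axis for the 16 receptor genes of the 10 cytokines, ordered by mean, with 1 point per library and open points for values listed at 0. Csf2rb lies above 130 FPKM in every library, Csf1r lies between 0.219 and 0.493 FPKM, and 4 genes are at 0 throughout.

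Other secreted factors placed the 10 genes in context. Of 34 further cytokine genes 14 were listed at 0 and 10 were tested, and none of the 10 passed the test (6 higher and 4 lower, median log2 fold change 0.04). Mif, the macrophage migration inhibitory factor (469 ± 20.4 FPKM without and 494 ± 32.2 with PIO, SD, n = 3), Tgfb1 (196 ± 5.30 and 215 ± 5.10 FPKM) and Il18 (112 ± 4.10 and 121 ± 6.28 FPKM) exceeded Csf1, and the angiogenic factor Vegfa followed (22.1 ± 2.83 and 19.7 ± 1.09 FPKM). Of 33 chemokine genes 19 were at 0 and 3 were tested, of which none passed the test. Only the monocyte attractant gene Ccl2 was abundant among them (53.2 ± 7.96 and 44.6 ± 3.64 FPKM, log2 fold change -0.24, limma adjusted p = 0.389), and Cxcl10, Cxcl16 and Ccl7 averaged under 1 FPKM in each group.

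Many regulators of cytokine genes were abundant. Of 38 transcription factor genes 27 were tested and none passed the test (12 higher and 15 lower, median log2 fold change -0.04). Gata2, which keeps mast cell genes active, ranged from 495 to 523 FPKM over the 6 libraries. Bhlhe40, a helix-loop-helix factor, stood at 180 ± 6.69 and 175 ± 3.69 FPKM (without and with PIO, SD, n = 3), the AP-1 subunit gene Jund at 81.6 ± 4.23 and 75.9 ± 4.5 FPKM, and Stat3, a mediator of cytokine receptors, at 76.0 ± 0.849 and 72.6 ± 0.735 FPKM. Of 17 genes for proteins that bind or degrade cytokine mRNA 16 were tested and none passed the test (5 higher and 11 lower, median -0.04), led by the AU-rich element binding gene Hnrnpd at 108 ± 5.18 and 100.5 ± 5.46 FPKM, with Cnot1, Upf1 and Elavl1 between 37.0 and 72.4 FPKM. Of 10 genes for cytokine release and shedding 9 were tested and none passed the test (5 higher and 4 lower, median 0.04), with Vamp3, Rab11a, Snap23 and Adam10 as the most abundant.

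Transcript levels differed along the cluster, although a gene listed at 0 here is not always silent. Of the 22601 genes listed, 7172 were at 0 in every library. In the order of the RefSeq annotation, used for gene order only, Kif3a (3.68 to 4.83 FPKM over the 6 libraries) is followed by Il4, Il13, the DNA repair gene Rad50 (19.7 to 22.4 FPKM), Il5, the interferon factor gene Irf1 (12.9 to 16.4 FPKM) and the carnitine transporter gene Slc22a5 (2.67 to 3.25 FPKM). Il5, listed at 0, thus lies between Rad50 and Irf1, which were both read in every library. Further on, Slc22a4 and P4ha2 were listed at 0 and Pdlim4 reached at most 0.0369 FPKM, and then come Csf2, Il3 and Acsl6 (at most 0.0411 FPKM). Il3 was thus read in every library beside a neighbour on each side with at most 0.322 FPKM. Of 15 genes listed as neighbours of the cluster 8 were tested, and none passed the test (7 higher and 1 lower, median log2 fold change 0.05), the most abundant being Hspa4, Uqcrq, Aff4 and Rad50.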

How the data were processed

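Per the labels' protocols, stranded mRNA libraries were made from TRIzol RNA. The authors deposited FPKM per gene and library. HISAT2 (2.2.1.0), Cufflinks and HTSeq appear in the submitters' processing notes, as does DESeq, with no role stated. The build named there, GRCh38, is human, although names and identifiers are of the rat. Tool and annotation behind the values are otherwise not stated, so positions of the deposited genes are not printed.

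FPKM were resolved into the smallest whole reads and whole model length per gene (15429 of 15429 genes above 0, relative tolerance 3e-08). Where few libraries are above 0, the true reads could be a multiple. Floors (3 reads) and exact intervals (95%, Poisson or conditional binomial) cover counting error only, since no molecular identifiers are named. All genes averaging 0.5 FPKM or more entered 1 fit of log2(FPKM + 0.5) by limma (3.58.1, under R 4.3.3), with a group term, trended prior variance and two-sided Benjamini-Hochberg adjusted p under 0.05. The code was tested on simulated data. An exact permutation test of 3 against 3 cannot go below p = 0.1 and was not run. Promoter windows came from RefSeq (GRCr8), and 7 of 10 members matched, not Il10, Il13 and Csf1. Other steps used Python 3.11.15 with scipy 1.17.1. The members, lists and tests were chosen with earlier results of these data known. Named were all members, all receptors, and of other lists the genes called and the 4 most abundant (3 for markers), and the 3 genes nearest in pattern to each member of at least 1 FPKM, of which those for Il13 are not reported here. Alternatives were 2 pseudocounts, 2 filters, 2 scalings, 3 variance settings, the replicate number as a block, limma-voom on recovered reads, and each library left out.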

Additional observations from a re-analysis of the deposited data

How the results depend on the processing

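None of the 4 tested cytokine genes was called in any of the 17 alternatives, where each was fitted (Il3 could not be fitted at a minimum mean of 1 FPKM). Over 17 alternatives Il4 kept its sign, with log2 fold changes of 0.099 to 0.55 and limma adjusted p of 0.371 to 0.869. Leaving out 1 library gave -0.41 to 0.28 for Il3, with the sign turned at 0.12 (without control replicate 2) and 0.28 (without PIO replicate 3). It gave -0.41 to 0.021 for Il13, turned at 0.014, 0.021 and 0.013 when control replicate 1, PIO replicate 2 or PIO replicate 3 was omitted, and -0.079 to 3.53e-05 for Csf1, turned without control replicate 3. The other alternatives kept these signs. The cause was not tested. With the replicate block 3 of all genes were called and 0 cytokine genes. The same-numbered libraries had deviations correlated at -0.0682, 0.0277 and 0.0776, and not every library correlated best with its own number. Values this small, from 3 libraries per group, do not show pairing by number and cannot exclude it. Against 4 genes in all, 1 was called with no filter on low values, 2 with no variance trend, and 7 each with a robust variance fit and with limma-voom on recovered reads. Leaving out 1 library gave 3 to 4. Under TPM scaling, which changes the unit, mean levels were 129 for Csf1, 3.48 for Il4, 3.20 for Il13, 1.43 for Il3 and 0.149 for Tnf. Few reads limited the precision of the detected members other than Csf1. The search for the TATATA letters was added after the sequences were seen.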

Other observations

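The lymphotoxin gene Ltb, a relative and genomic neighbour of Tnf, fell outside the rule for named genes and was chosen after its values were seen. It had 1 read in each control library and 14, 7 and 1 reads in PIO replicates 1 to 3 (0.0568 to 0.0607 FPKM in control, and 0.853, 0.418 and 0.0608 FPKM with PIO). The other lymphotoxin gene, Lta, had 0, 2 and 0 reads in control and 2, 0 and 0 with PIO. Both were below the limit on low values and were not tested.

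The genes whose values over the 6 libraries ran closest to those of Csf1, among 9563 genes compared, were Sohlh2, Abcb8 and Tax1bp1, at a root-mean-square difference of 0.0129, 0.0135 and 0.0155 on the log2(FPKM + 0.5) scale after centring each gene. For Il4 they were Rbm39 (0.0947), Gemin7l1 (0.202) and Stoml3 (0.204). The Il4 values rest on 6 to 19 reads per library, with a standard deviation of 4.29 against 3.46 from counting alone. The closest of 9563 genes over 6 libraries need not vary together with the member, and this was not tested.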
